A study of Bos taurus with 9 samples.

Results

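The data described here are the ChIP-seq peaks on chromosomes 5 and 14 of MDBK cells, the autosomes with the highest median counts of RNA polymerase II and H3K9me3 peaks per window. All peaks of the 8 deposited lists on these chromosomes were taken, which gave 52987 peaks on chromosome 5 and 31606 on chromosome 14, or 84593 of the 673926 peaks in the lists. MDBK is an established epithelial cell line from bovine kidney, and the labels give its breed, spelled Hostein. Untreated control cells were compared with cells that received 5 mM butyrate for 24 h, and chromatin was immunoprecipitated in each condition with 4 antibodies, against H3K9ac, H3K27ac, RNA polymerase II (Pol II) and H3K9me3. Each of the 8 combinations was 1 library, and 1 input library, DNA of the same cell line without immunoprecipitation, served as background for peak calling. All control libraries shared sequencing lane 4 and all butyrate libraries shared lane 5, so a lane effect and a treatment effect cannot be told apart. The input library was also in lane 5, so the control lists were called against a background from another lane.

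Acetylation of lysines 9 and 27 of histone H3 marks active promoters and enhancers, Pol II is the enzyme that transcribes genes, and trimethylation of lysine 9 marks repressed heterochromatin. Acetylation and Pol II therefore often coincide, and H3K9me3 usually lies elsewhere. Butyrate, which microbes of the rumen release as they ferment feed, inhibits histone deacetylases. Cultured cell lines often carry extra or missing copies of chromosomes or chromosome arms, and the number of peaks that a caller finds in a stretch of DNA grows with the reads that the stretch contributes. Copy number was not measured in these data, and its part in the values below was not tested.

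Peaks were counted by their midpoint in windows of 1 Mb, on the cattle assembly UMD3.1.1. Each count was divided by the median full window of the other 27 autosomes in the same list, here called the relative count, so that 1 stands for the usual window of that list. The divisor was 20 peaks in the control and 36 in the butyrate H3K9ac list, and 28 and 55.5 in the H3K27ac lists. It was 18 and 9 peaks in the Pol II lists, and 7 and 30 in the H3K9me3 lists. Chromosome 5 had 121 full windows and chromosome 14 had 84, which were 4.84% and 3.36% of the 2499 autosomal windows. The chromosomes were chosen because their counts were high in these same lists. Counts along them are therefore given as descriptions without a test, and with 1 library per group no difference between conditions has a replicate check. Intervals are 95% intervals for counting error only.

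The excess was largest for the marks that are usually apart, Pol II and H3K9me3. The control Pol II peaks seldom lay with acetylation. On the other 27 autosomes 8.91% of them shared at least 1 bp with a control H3K27ac peak, next to 8.84% of the control H3K9me3 peaks. For butyrate Pol II and butyrate H3K27ac this was 60.8%. H3K27ac peaks covered 1.44% of the bases there in control and 3.13% after butyrate. How far the control Pol II list reflects transcription was not tested. The median window of chromosome 5 stood at 3.50 in the control Pol II list (exact interval 3.28 to 3.89) and at 5.00 in the control H3K9me3 list (4.43 to 5.71). After butyrate it stood at 2.67 for Pol II (2.11 to 3.22) and at 2.37 for H3K9me3 (2.17 to 2.60). The acetyl marks showed a smaller excess on this chromosome, with medians of 1.90 and 1.75 for H3K9ac in control and butyrate and of 1.75 and 1.57 for H3K27ac. Chromosome 5 had the highest median of the 29 autosomes in 6 lists and the second highest in the butyrate H3K27ac and butyrate H3K9me3 lists.

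On chromosome 14 the excess lay almost wholly in the Pol II and H3K9me3 lists. Its median window stood at 2.89 in the control Pol II list (2.50 to 3.28) and at 1.89 after butyrate (1.56 to 2.11). For H3K9me3 it was 4.43 in control (4 to 5) and 2.43 after butyrate (2.23 to 2.67). It ranked first or second of the 29 autosomes in these 4 lists. In the 4 acetyl lists its medians ran from 1.12 to 1.30, every interval reached below 1, and its rank ran from 5 to 11. With the mean window as divisor in place of the median, these 4 medians ran from 0.85 to 0.97. The butyrate H3K27ac median was also below 1 with windows of 500 kb, at 0.95, with windows of 2 Mb, at 0.94, and with neighbouring peaks joined, at 0.94. The highest median of any of the other 27 autosomes was 1.36 in the control Pol II list, on chromosome 10, and 1.43 in the control H3K9me3 list, on chromosome 15.

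**Figure D1:**
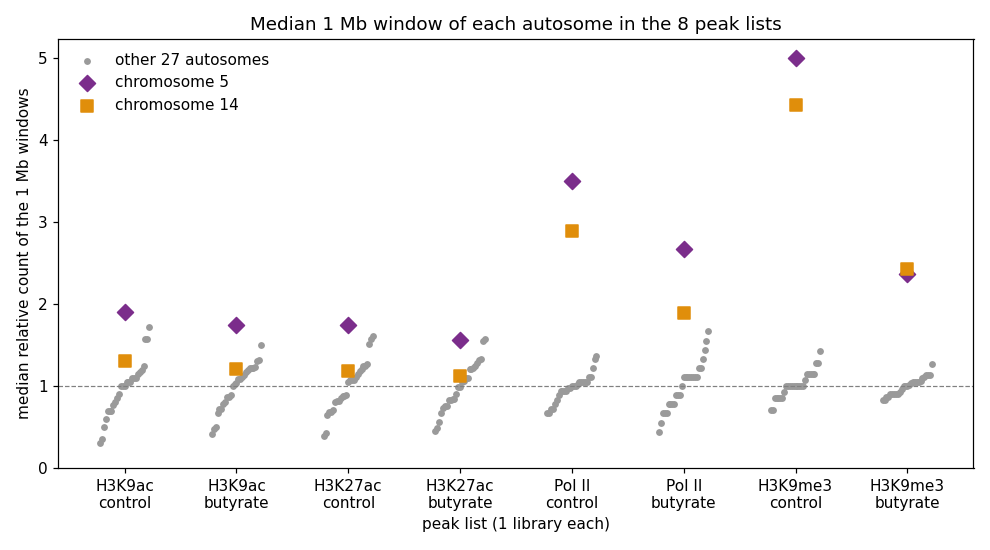
Median relative count of the 1 Mb windows of each autosome (vertical axis, 1 is the median window of the other 27 autosomes) in each of the 8 lists (horizontal axis), with chromosome 5 as diamonds, chromosome 14 as squares and each other autosome as a grey point. In the control H3K9me3 list chromosomes 5 and 14 stand at 5.00 and 4.43, and no other autosome exceeds 1.43.

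In share of peaks, chromosome 5 held between 6.02% of all autosomal peaks, in the butyrate H3K27ac list, and 16.6%, in the control H3K9me3 list. Chromosome 14 held between 3.25% and 10.5%, in the same lists. Neither chromosome was at an extreme of gene density. Genes were counted in a RefSeq gene table of another assembly, ARS-UCD2.0, used here only for that. The counts were divided by the span up to the last peak of the chromosome in the lists. Chromosome 5 had 9.99 protein-coding genes per Mb, the 9th highest of 29, and chromosome 14 had 5.17, the 23rd. The part of gene density in the peak counts was not tested.

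A window was called raised in a list when its relative count was at least 1.5. In the control and butyrate H3K9ac lists 76 and 67 of the 121 windows of chromosome 5 were raised, and 40 and 33 of the 84 of chromosome 14. Of all autosomal windows 38.9% and 37.1% were raised in these lists. For H3K27ac the counts were 74 and 61 on chromosome 5 and 35 and 25 on chromosome 14, with 36.9% and 37.1% of all autosomal windows. The counts on chromosome 14 were 29.8% to 47.6% of its windows, on both sides of this background.

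The other antibodies stood further from it. In the control Pol II list 101 of 121 windows of chromosome 5 and 77 of 84 of chromosome 14 were raised, where 28.7% of all autosomal windows were. In the control H3K9me3 list these counts were 106 and 80, where 31.1% of all autosomal windows were raised. After butyrate 87 and 53 windows were raised for Pol II, with 36.2% of all autosomal windows, and 94 and 70 for H3K9me3, with 23% of them.

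Many windows were raised in several lists at once. At least 6 of the 8 lists were raised in 69 windows of chromosome 5, or 57.0% of them, and in 35 windows of chromosome 14, or 41.7%. This held for 22.9% of all autosomal windows and for 20.4% of those on the other 27 autosomes. In all 4 Pol II and H3K9me3 lists at once, 67 windows of chromosome 5 and 44 of chromosome 14 were raised, or 55.4% and 52.4%. Of all autosomal windows 8.52% met this condition, and of windows on the other 27 autosomes 4.45% did.

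To find where the excess began and ended, the log2 relative counts of all 8 lists were fitted together by levels that were constant between borders shared by the lists. This joint fit split the 29 autosomes into 53 segments, with 24 borders on 16 chromosomes. It placed 1 border on each of the chromosomes described here, and some other settings placed more. On chromosome 5 the border lay at 104 Mb, so that a long segment, chr5:1-104000000, was set apart from the last 17 full windows. On chromosome 14 it lay at 5 Mb, which set chr14:5000001-84000000 apart from the first 5 windows. Of the 84593 peaks, 49082 lay in the long segment of chromosome 5 and 30998 in that of chromosome 14, counting to its last peak. The rest of chromosome 5 held 3905 and the first 5 Mb of chromosome 14 held 608.

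The long segment of chromosome 5 was above 1.5 in all 8 lists. Its median window stood at 2.20 for control and 1.88 for butyrate H3K9ac, and at 1.82 and 1.60 for H3K27ac. For Pol II it was 3.81 in control and 3.06 after butyrate, and for H3K9me3 5.57 and 2.57. The last 17 windows of the same chromosome had medians between 0.61 and 1.22 in the 8 lists. They were below the usual level, with intervals that exclude 1, in control Pol II at 0.61 (0.22 to 0.89), butyrate H3K9ac at 0.61 (0.17 to 0.75) and butyrate H3K9me3 at 0.70 (0.43 to 0.97). Only 3 of the 53 segments, or 5.66%, were raised in at least 6 lists, and this was 1 of them.

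The long segment of chromosome 14 did not meet that rule, because only 5 of its 8 medians reached 1.5. It is described because its chromosome belongs to the set, and was chosen with its values seen. The 5 lists were control H3K9ac at 1.55, control and butyrate Pol II at 2.94 and 2.00, and control and butyrate H3K9me3 at 4.57 and 2.53. Butyrate H3K9ac stood at 1.25, and H3K27ac at 1.29 in control and 1.12 after butyrate. The first 5 windows had medians between 0.32 and 1.00. The first 2 windows were an exception in the control H3K9me3 list, with relative counts of 4.29 and 1.57. Its low stretch before the border thus spanned 3 windows, at 0.14, 0.43 and 0.43. The first window was also past 1.5 in control Pol II, at 1.61, and in butyrate H3K9me3, at 1.77.

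**Figure D2:**
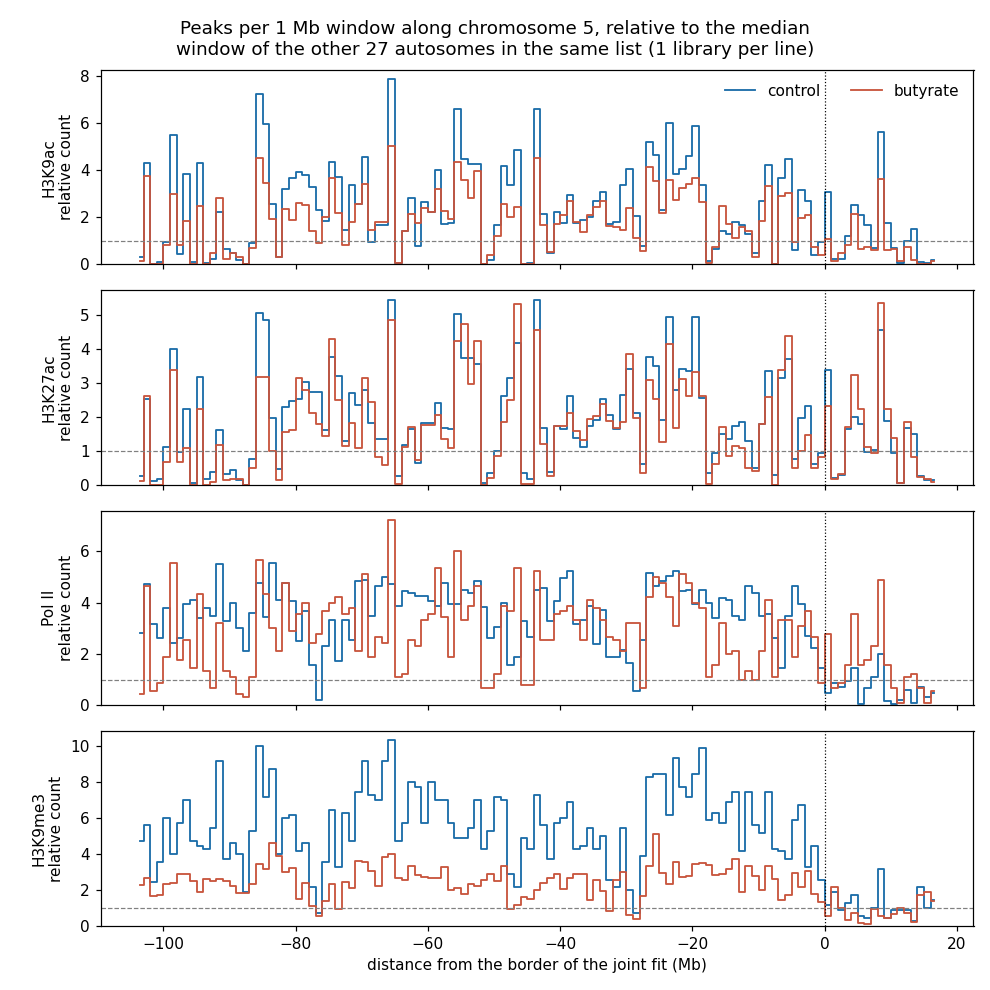
Relative count per 1 Mb window (vertical axes, 1 is the median window of the other 27 autosomes) along chromosome 5, for control (blue) and butyrate (red) and each antibody, against the distance in Mb from the border of the joint fit (dotted line). The control Pol II and H3K9me3 lines run at medians of 3.81 and 5.57 before the border and of 0.61 and 1.00 after it, and the acetyl lines rise and fall through the border.

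Within the long segments the control Pol II and control H3K9me3 counts were high nearly everywhere. The 10th percentile of the control Pol II windows was 1.96 on chromosome 5 and 1.78 on chromosome 14, next to a 90th percentile of 1.83 on the other 27 autosomes. For control H3K9me3 the 10th percentiles were 2.99 and 2.54, and the 90th percentile elsewhere was 2.14. Butyrate Pol II was less even, with 10th percentiles of 0.89 and 0.76 and with 76.0% and 67.1% of the windows raised. In peaks per Mb, the control Pol II list held 64.7 (63.1 to 66.2) in the chromosome 5 segment and 56.6 (54.9 to 58.3) in the chromosome 14 segment, against 19.3 (19.1 to 19.5) on the other autosomes. The control H3K9me3 list held 39.0 (37.8 to 40.3) and 32.9 (31.7 to 34.2), against 8.03 (7.92 to 8.15).

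As a ratio of these densities to the other autosomes, the chromosome 5 segment had 3.35 times as many control Pol II peaks and 4.86 times as many control H3K9me3 peaks. After butyrate these ratios were 2.28 and 2.33. The chromosome 14 segment had ratios of 2.93 and 4.10 in control and of 1.72 and 2.35 after butyrate. The acetyl ratios ran from 1.29 to 1.77 on chromosome 5 and from 1.00 to 1.31 on chromosome 14, where the lowest value was butyrate H3K27ac. For the same stretch of DNA the ratio to the other autosomes thus differed between lists. Each list is 1 library of unknown depth, so the parts of antibody, condition, lane and depth in this cannot be told apart.

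Both segments stood at nearly the same level in the butyrate H3K9me3 list, and chromosome 5 was above chromosome 14 in the others. The ratio of the chromosome 5 median to the chromosome 14 median was 1.01 in the butyrate H3K9me3 list and 1.22 in the control one. In the other 6 lists it ran from 1.29, in the control Pol II list, to 1.53, in the butyrate Pol II list.

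**Figure D3:**
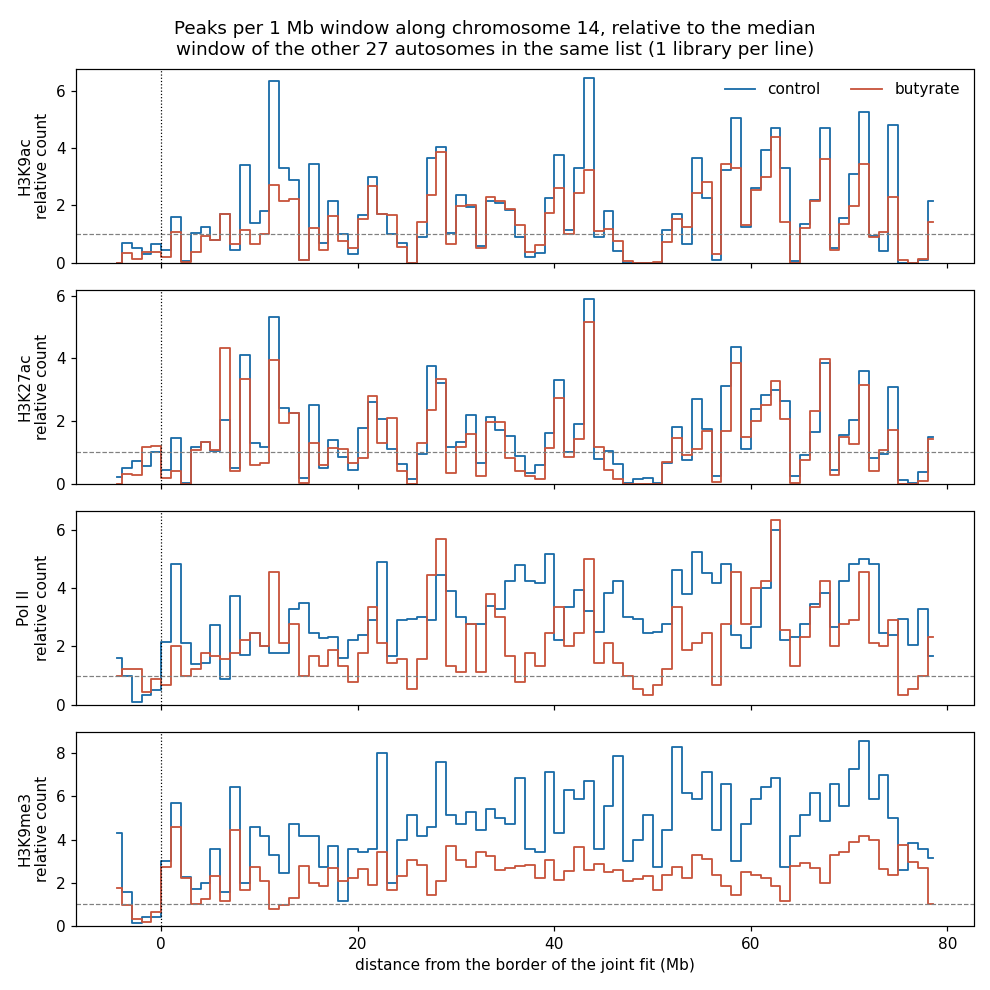
Relative count per 1 Mb window (vertical axes, 1 is the median window of the other 27 autosomes) along chromosome 14, for control (blue) and butyrate (red) and each antibody, against the distance in Mb from the border of the joint fit (dotted line). The low stretch before the border is short, and beyond it the control Pol II and H3K9me3 lines run at medians of 2.94 and 4.57.

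The borders were shared by some lists only. When each list was fitted alone, a border within 1 Mb of the joint one appeared in 3 of the 8 lists on both chromosomes. These were control Pol II, control H3K9me3 and butyrate H3K9me3. No acetyl list placed a border there, and neither did butyrate Pol II. Fitted on the control lists alone, the borders lay at 104 Mb and 5 Mb as in the joint fit. Fitted on the butyrate lists alone, chromosome 5 had borders at 18 and 103 Mb and chromosome 14 had none. The chromosome 14 border was also lost when the control Pol II list was left out.

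A closer position came from the peaks within 3 Mb on either side, as the 10 kb step at which a change between 2 constant rates fitted best. On chromosome 5 control Pol II placed it at 103.48 Mb (positions within 2 log-likelihood units, 103.48 to 103.58), control H3K9me3 at 103.50 Mb (103.47 to 103.60) and butyrate H3K9me3 at 103.30 Mb (103.29 to 103.46). The best positions of these 3 lists thus lay between 103.30 and 103.50 Mb. Across this point control Pol II went from 45.2 to 11.6 peaks per Mb, control H3K9me3 from 28.0 to 8.29 and butyrate H3K9me3 from 74.8 to 33.0. The other 5 lists changed rate elsewhere, at 102.20 Mb in butyrate H3K9ac and butyrate Pol II and at 104.70 or 104.71 Mb in the other 3.

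On chromosome 14 the lists agreed less on the position. Control H3K9me3 placed it at 4.86 Mb (4.78 to 5.44), where its rate went from 1.40 to 25.5 peaks per Mb. Butyrate H3K9me3 placed it at 4.76 Mb (4.74 to 4.78), with a change from 6.52 to 93.5. Control Pol II placed it at 5.59 Mb (5.44 to 5.59), with a change from 6.96 to 64.7, so its range met that of control H3K9me3 only at 5.44 Mb. Butyrate Pol II held 56 peaks in this stretch and allowed positions from 3.92 to 7.26 Mb. The acetyl lists changed rate at 4.26 Mb in butyrate H3K27ac and between 6.60 and 6.74 Mb in the other 3, in each case from a higher to a lower rate.

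Steps between neighbouring stretches were common in all lists. Counting boundaries where the medians of the 5 windows before and after differed at least 1.5-fold in the same direction in at least 6 lists, chromosome 5 had 10 of 112 and chromosome 14 had 9 of 75. Over all autosomes 34.4% of the boundaries met this rule, and on the other 27 autosomes 36.6% did, so the rule was met by a smaller share of boundaries on chromosomes 5 and 14. The joint borders themselves did not meet it, with 4 lists at 104 Mb of chromosome 5 and 5 lists at 5 Mb of chromosome 14. Boundaries 1 Mb away did, with 7 lists at 103 Mb and 6 at 105 Mb of chromosome 5 and all 8 at 6 Mb of chromosome 14. At the border of chromosome 5 itself, the 5 windows on each side did not overlap in the control H3K9me3 list alone. The windows before ran from 2.57 to 6.71 and those after from 0.86 to 1.86. In the control Pol II list they ran from 1.44 to 4.67 before and from 0.50 to 1.44 after, meeting at 1.44. At the border of chromosome 14 the windows on either side overlapped in all 8 lists.

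The acetyl marks varied along the chromosome 5 segment more than control Pol II and the H3K9me3 lists did. In its first 20 Mb the acetyl medians lay between 0.33 and 0.60 in the 4 lists, below the usual window. The control Pol II median of the same 20 windows was 3.47 and the control H3K9me3 median was 4.71. Between 20 and 40 Mb the acetyl medians lay between 1.70 and 2.88, and control Pol II and H3K9me3 stood at 3.78 and 6.07. Butyrate H3K9me3 was as even, at 2.42 and 2.55 in these blocks. Butyrate Pol II moved with the acetyl marks, from 1.39 to 3.28.

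Windows with hardly any acetylation showed the same. These were windows at or below 0.25 of the usual count in all 4 acetyl lists, a condition chosen after the profiles were seen. There were 8 of them in the chromosome 5 segment, 10 in the chromosome 14 segment and 488 on the other autosomes. In control Pol II they held 38 to 74 peaks per window on chromosome 5 and 37 to 63 on chromosome 14, with medians of 62.5 and 49, against a median of 9 elsewhere. In control H3K9me3 the medians were 30 and 27.5 peaks against 3, and in butyrate H3K9me3 65 and 76 against 18.

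All 8 and all 10 of these windows were raised in those 3 lists. On the other 27 autosomes 1.02% of such windows were raised in control Pol II, 2.87% in control H3K9me3 and 7.38% in butyrate H3K9me3. Butyrate Pol II differed, for none of these windows was raised in it. Its medians there were 7.5 and 5.5 peaks per window against 1 peak elsewhere, or 0.83 and 0.61 against 0.11 as relative counts.

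When windows were grouped by their H3K27ac count, the excess was present in every group. Among windows with an H3K27ac relative count below 0.25, the control Pol II median of the chromosome 5 segment was 6.17 times that of the other autosomes. Among those with a count of 2 or more it was 2.54 times. For control H3K9me3 the ratio went from 9.67 to 3.82 over the same groups. On chromosome 14 the ratios went from 5.89 to 1.86 for Pol II and from 9 to 3.18 for H3K9me3. The ratio was thus smallest where acetylation was densest.

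**Figure D4:**
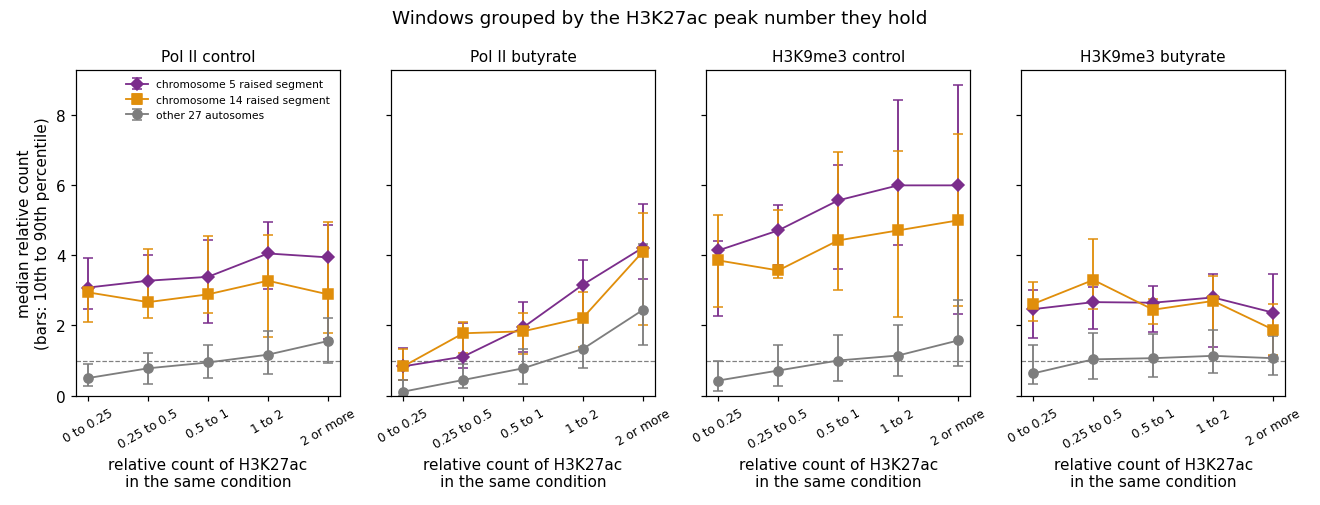
Median relative count of Pol II and H3K9me3 (vertical axis, bars from the 10th to the 90th percentile of windows) in windows grouped by their H3K27ac relative count in the same condition (horizontal axis), for the long segments of chromosomes 5 and 14 and the other 27 autosomes. In control Pol II the chromosome 5 segment runs between 3.08 and 4.06 across the groups, and the other autosomes between 0.50 and 1.56.

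The window with the highest median over the 8 lists in the chromosome 5 segment was chr5:38000001-39000000. It held 157 control and 181 butyrate H3K9ac peaks, and 153 and 270 H3K27ac peaks. It also held 85 and 65 Pol II peaks and 72 and 119 H3K9me3 peaks. All marks were dense there at once.

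The window with the lowest median, chr5:16000001-17000000, had no acetyl peak in any of the 4 lists. A count of 0 allows up to 3 peaks. Control Pol II still had 38 peaks in it, control H3K9me3 13 and butyrate H3K9me3 55, and butyrate Pol II had 3. On chromosome 14 the highest window was chr14:48000001-49000000, with 165 control and 287 butyrate H3K27ac peaks, 58 and 45 Pol II peaks and 47 and 77 H3K9me3 peaks. The lowest was chr14:80000001-81000000, where the acetyl lists held 0 to 3 peaks each, control Pol II 53, control H3K9me3 18 and butyrate H3K9me3 113.

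A few windows within the segments went against the excess. In chr5:27000001-28000000 control Pol II had 4 peaks and control H3K9me3 5, or 0.22 and 0.71 of the usual window. The same window held 77 control H3K27ac peaks, or 2.75 times the usual window, and 25 butyrate Pol II peaks, or 2.78 times. In chr5:75000001-76000000 control Pol II had 10 peaks and control H3K9me3 5, with 59 control H3K27ac peaks. These were the only windows of the chromosome 5 segment below 1 in control Pol II or control H3K9me3. In the chromosome 14 segment 1 window was, chr14:11000001-12000000, with 16 control Pol II peaks, or 0.89, and 240 butyrate H3K27ac peaks.

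The next comparison was between butyrate and control inside and outside the segments. Counting peaks of all lengths, butyrate lists had more acetyl and H3K9me3 peaks and fewer Pol II peaks than control lists. This direction was the same in both segments and on the other autosomes. In the chromosome 5 segment H3K9me3 went from 4060 to 7741 peaks, a log2 ratio of 0.93 (0.88 to 0.99). In the chromosome 14 segment it went from 2602 to 5919, a log2 ratio of 1.19 (1.12 to 1.25). On the other autosomes it went from 18427 to 73286, a log2 ratio of 1.99 (1.97 to 2.02). The log2 ratio was thus lower in the segments than on the other autosomes. The chromosomes were chosen for high counts in these same lists, the control lists among them. Comparisons of butyrate with control inside and outside the segments are therefore not independent of that choice.

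Pol II went from 6727 to 2710 peaks in the chromosome 5 segment, a log2 ratio of -1.31 (-1.38 to -1.25). It went from 4470 to 1559 in the chromosome 14 segment, a log2 ratio of -1.52 (-1.60 to -1.44). On the other autosomes the log2 ratio was -0.75 (-0.77 to -0.73). These ratios were lower in both segments than elsewhere, with differences of -0.56 and -0.77 on the log2 scale. Among Pol II peaks of at least 500 bp the directions were opposite. Such peaks went from 159 to 112 and from 95 to 46 in the segments, and from 301 to 996 on the other autosomes.

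The acetyl lists differed less. H3K9ac had log2 ratios of 0.44 (0.39 to 0.49) and 0.48 (0.41 to 0.55) in the segments and of 0.67 (0.66 to 0.68) elsewhere. H3K27ac had log2 ratios of 0.73 (0.69 to 0.78) and 0.72 (0.66 to 0.78) in the segments and of 1.02 (1.00 to 1.03) elsewhere. For H3K9ac the difference from the other autosomes was -0.02 in both segments among peaks of at least 300 bp. It turned positive among peaks of at least 500 bp, to 0.35 and 0.37. Such H3K9ac peaks went from 13221 to 10415 on the other autosomes, and in the segments from 1126 to 1127 and from 566 to 575. The H3K27ac difference was -0.28 and -0.29 for all lengths and -0.02 and -0.11 among peaks of at least 500 bp. The distal 17 windows of chromosome 5 went another way for Pol II, from 199 to 234 peaks, with a log2 ratio of 0.23 whose interval (-0.05 to 0.51) includes 0. Their log2 ratio was 0.03 (-0.16 to 0.22) for H3K9ac and 1.64 (1.36 to 1.93) for H3K9me3. In the first 5 windows of chromosome 14 these were 0 (-0.64 to 0.64) and 1.29 (0.79 to 1.80). For these 2 antibodies ratios below those of the other autosomes were thus not particular to the segments. For H3K27ac the log2 ratios of these parts were 1.10 and 0.98.

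**Figure D5:**
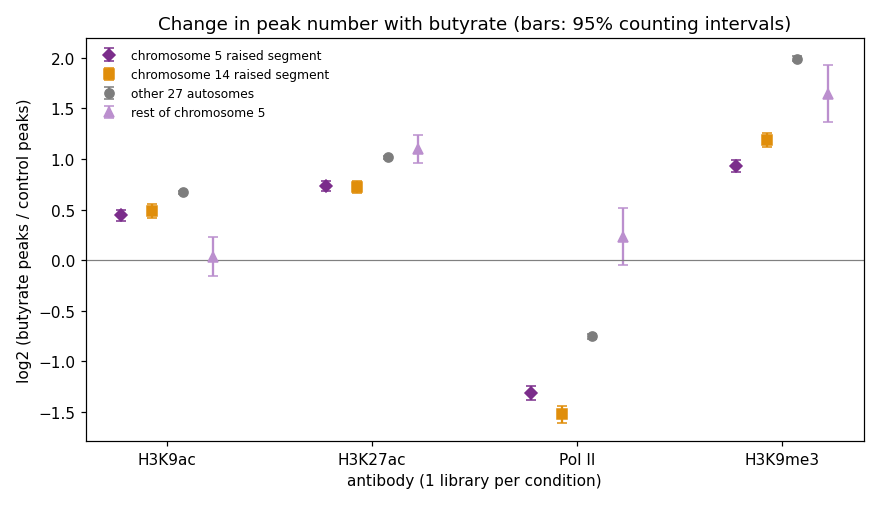
Log2 ratio of butyrate to control peak number (vertical axis, bars are 95% counting intervals) for each antibody (horizontal axis), in the long segments of chromosomes 5 and 14, the other 27 autosomes and the rest of chromosome 5, with 1 library per condition. Counting peaks of all lengths, both segments lie below the other autosomes for all 4 antibodies, most for H3K9me3, at 0.93 and 1.19 against 1.99.

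Peak length was not used to choose the chromosomes, and it differed from the other autosomes too. In the control Pol II list the median peak was 235 bp long in the chromosome 5 segment (233 to 237) and 234 bp in the chromosome 14 segment (231 to 236), against 215 bp (214 to 216) elsewhere. In the control H3K9me3 list it was 232 and 228 bp against 214 bp. The butyrate H3K9me3 medians were 245 and 244 bp against 230 bp. In these 3 lists the rest of chromosome 5 and the first 5 Mb of chromosome 14 had few peaks, with medians at least as long. The medians there were 235.5 and 251 bp in control Pol II, 248 and 237 bp in control H3K9me3 and 256 and 264 bp in butyrate H3K9me3. The greater length was thus not particular to the segments. The control acetyl lists hardly differed, with 304.5 and 299 bp against 300 bp for H3K9ac and 285 and 282 bp against 289 bp for H3K27ac. After butyrate the acetyl peaks of the segments were longer, with 289 and 282 bp against 270 bp for H3K9ac and 344 and 340 bp against 325 bp for H3K27ac.

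Peaks of the shortest length in the lists, where end minus start was 199, took a smaller share in the segments than on the other autosomes. They made up 26.7% and 27.7% of the control Pol II peaks in the segments and 39.2% on the other autosomes. For control H3K9me3 the shares were 27.5% and 27.7% against 38.7%. In the rest of chromosomes 5 and 14 they were lower still, at 23.5% and 7.81% for control Pol II and 23.0% and 16.7% for control H3K9me3. At the other end, peaks of at least 500 bp had a density 11.7 and 9.14 times that of the other autosomes for control Pol II, and 14.5 and 7.63 times for control H3K9me3. These ratios exceed the 3.36 and 2.93 for Pol II peaks of all lengths and the 4.86 and 4.10 for H3K9me3. They rest on 159 and 95 long Pol II peaks and on 72 and 29 long H3K9me3 peaks.

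After butyrate the long-peak ratios of these antibodies were nearer to those of all peaks. For H3K9me3 they were 3.40 and 3.16, from 406 and 289 peaks. For Pol II they were 2.49 and 1.34, from 112 and 46 peaks, and the median Pol II length was 241 and 235 bp in the segments against 235 bp elsewhere. For butyrate H3K9ac the ratio of long peaks was 2.40 and 1.60, next to 1.51 and 1.15 for peaks of all lengths. Among the longest peaks in the chromosome 5 segment were chr5:19953094-19958428, a butyrate H3K27ac peak of 5335 bp, and chr5:9136624-9141323, a control H3K27ac peak of 4700 bp. The longest there in control Pol II was chr5:5145949-5146754, of 806 bp, and in control H3K9me3 chr5:22901933-22902763, of 831 bp. In the chromosome 14 segment these were chr14:27901836-27902789, of 954 bp, and chr14:57267686-57268575, of 890 bp.

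Control Pol II and control H3K9me3 peaks lay closer together within the segments. The median gap between neighbouring control H3K9me3 peaks was 13.7 kb in the chromosome 5 segment and 16.6 kb in the chromosome 14 segment, against 64.6 kb on the other autosomes. For control Pol II it was 7.69 and 8.56 kb against 27.03 kb. The control H3K9ac gaps were 1.88 and 2.31 kb, against 1.98 kb elsewhere, and the control H3K27ac gaps were wider in both segments, at 2.02 and 2.34 kb against 1.78 kb.

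Whether the same sites were found in both conditions was compared next, by counting control peaks that shared at least 1 bp with a butyrate peak of the same antibody. For H3K9me3 this was 24.5% of the control peaks in the chromosome 5 segment (Wilson interval 23.2 to 25.9) and 21.3% in the chromosome 14 segment (19.8 to 22.9). On the other autosomes it was 12.9% (12.4 to 13.4). Butyrate H3K9me3 peaks covered 2.12% and 2.11% of the bases in the segments and 0.856% elsewhere. The covered share was thus also higher in the segments, and by a larger factor than the overlap. The higher overlap was not particular to the segments. In the rest of chromosomes 5 and 14 it was 30.2% (23.2 to 38.3) of 139 control peaks and 52.1% (38.3 to 65.5) of 48. Butyrate H3K9me3 peaks covered 0.749% and 0.660% of the bases in these parts.

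For Pol II 7.92% (7.30 to 8.59) and 6.10% (5.44 to 6.84) of the control peaks met a butyrate peak in the segments, against 3.84% (3.66 to 4.02) elsewhere. Butyrate Pol II peaks covered 0.724% and 0.528% of the bases against 0.310%, again a larger factor than that of the overlap. Most control Pol II peaks of the segments therefore had no butyrate Pol II peak at the same place. The shares were higher for the acetyl lists, for H3K27ac at 66.5% and 62.9% against 66.3% elsewhere and for H3K9ac at 53.6% and 50.2% against 48.7%.

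Pol II and H3K9me3 peaks of control cells met each other at a higher share in the segments than on the other autosomes. Of the control Pol II peaks 11.8% (11.1 to 12.6) and 10.2% (9.34 to 11.1) shared a base with a control H3K9me3 peak, against 3.19% (3.03 to 3.36) on the other autosomes. Control H3K9me3 peaks covered 1.01% and 0.833% of the bases there and 0.192% elsewhere. Here too the covered share was higher in the segments by a larger factor than the overlap. Control H3K27ac peaks met 12.3% and 9.97% of the control Pol II peaks in the segments, against 8.91% on the other autosomes. They met 12.6% and 10.5% of the control H3K9me3 peaks, against 8.84%. Every list was called against the same input library, and the part of this in the shared positions was not tested.

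On the remaining autosomes 2 segments of the joint fit were raised in at least 6 lists. The longer one, chr15:29000001-68000000, was raised in all 8 lists, with medians of 2.28 in control Pol II and 3.29 in control H3K9me3. The other, chr12:46000001-56000000, was raised in 7 lists, with 1.5 and 1.64 in the same lists. The control H3K9me3 medians of the chromosome 5 and 14 segments, 5.57 and 4.57, were above both.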

How the data were processed

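Peak lists of 8 ChIP-seq libraries of MDBK cells were used, each placed in its group by its label. The authors removed reads of 75 nt that failed the quality filter, aligned the rest with BWA, kept uniquely placed reads with few mismatches, and called peaks per library with MACS2 at default settings against 1 MDBK input library. The submitters' processing notes also list Trim Galore 0.4.1, whose use on these libraries is not stated. The study names the assembly UMD3.1.1 and the labels UMD3.1. The deposited values are chromosome, start and end in base pairs, with no score, signal or read number, so depth is unknown. The lists do not say whether starts count from 0 or 1. Here 0 was assumed, and printed starts are 1 higher than in the lists. No gene was named, because the gene table at hand is of another assembly, and no sequence was used here.

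The chromosomes and the comparisons were chosen with earlier results of these data known. Relative counts used full 1 Mb windows. The joint fit was a penalised fit of constant levels to log2 of count plus 0.5 over divisor plus 0.5, each list scaled by its noise between neighbouring windows, with a minimum segment of 3 windows and a penalty factor of 3, and was tested on simulated data with planted gains. Regions named were the raised segments, their borders, their highest and lowest windows and their longest peaks. Windows below 1 in control Pol II or control H3K9me3, the acetylation-poor windows and the blocks of chromosome 5 were chosen after values were seen. Peak numbers have exact Poisson intervals, log2 ratios exact binomial intervals, medians exact binomial intervals and shares Wilson intervals. A peak counted as overlapped when it shared at least 1 bp. Groups of 1 library allow no test. Alternatives were other window sizes, minimum lengths of 300 and 500 bp, covered bases, joining of peaks less than 1000 bp apart, a mean divisor, other thresholds, penalties and lists, and an overlap of 50%. Analyses used Python 3.11.15, numpy 2.4.6, pandas 2.3.3, scipy 1.17.1 and matplotlib 3.10.9.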

Additional observations from a re-analysis of the deposited data

How the results depend on the processing

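No paired analysis was possible because all groups are single libraries. The median of the 8 chromosome medians was 2.13 on chromosome 5 and 1.59 on chromosome 14. It stayed within its interval under windows of 500 kb and 2 Mb, both minimum lengths, covered bases and joined peaks, and moved to 1.75 and 1.23 with the mean window as divisor. At 500 bp it rests on 5 lists, because the median window of both Pol II lists and of control H3K9me3 held 0 such peaks, and raised windows were not counted there. Windows raised in at least 6 lists stayed within 1.5 times 57.0% and 41.7%, except that requiring all 8 lists left 32.2% and 19.0%. The chromosome 5 border lay between 103 and 104 Mb with other windows, covered bases, joined peaks, penalty factors of 1.5 and 6, either condition alone, any 1 list left out, and the Pol II and H3K9me3 lists only, a choice made after seeing the data. The acetyl lists alone placed their 1 border at 17 Mb, and the butyrate lists at a penalty factor of 6 placed none. A second border on chromosome 5 appeared with 500 kb windows, covered bases, a penalty factor of 1.5, the butyrate lists only, and without control Pol II or either H3K9me3 list, and 4 borders on chromosome 14 with covered bases or a penalty factor of 1.5. The chromosome 14 border lay at 5 or 5.5 Mb and was not placed with windows of 2 Mb, a penalty factor of 6, the butyrate lists only or without the control Pol II list.

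Boundaries with a shared step, 8.93% on chromosome 5 and 12% on chromosome 14, became 16.7% on chromosome 5 with 500 kb windows, 3.92% and 6.06% with 2 Mb windows, and 18.7% with covered bases and 5.33% with joined peaks on chromosome 14. The level of the segments, a median over lists of 2.38 and 1.78, moved to 1.98 on chromosome 5 with the mean divisor. The median difference of the butyrate to control log2 ratio from the other autosomes was -0.42 and -0.53. It became -0.63 and -0.60 for peaks of at least 300 bp and -1.05 and -0.69 for those of at least 500 bp. At 500 bp the Pol II differences were -2.24 and -2.80 and the H3K9me3 differences -2.08 and -1.27. The H3K9ac difference reversed there to 0.35 and 0.37. The overlap at 50% changed no direction in the median. Of 310 values recomputed, 197 stayed within their error, 111 moved and 2 reversed. The unknown depth and the single library per group limit all comparisons.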

Other observations

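The chromosome 14 segment was not level along its length. Split at 26 Mb, a point chosen after the single-list fits were seen, its control Pol II median was 2.22 over the first 21 windows and 3.25 over the 58 that followed. Control H3K9me3 stood at 3.43 and 5.14, and butyrate H3K9me3 at 2.10 and 2.60. The control H3K27ac medians were 1.29 and 1.25, and butyrate H3K9ac stood at 0.94 and 1.42, a ratio of 1.5 like that of control H3K9me3. The joint fit placed no border there.

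The segment on chromosome 15 was, like that of chromosome 5, raised in all 8 lists. Its control H3K9ac median was 1.60 inside and 0.35 over the rest of the chromosome, and its control H3K27ac median 1.61 and 0.39. Control Pol II stood at 2.28 and 0.75 and control H3K9me3 at 3.29 and 1.00. Inside it 33 of 39 windows were raised in control Pol II and 32 in control H3K9me3. Whether it differs from the chromosome 5 segment beyond these values was not tested.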
